A study of Pongo abelii with 6 samples.

Results

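Genes of the Wnt pathway were examined in induced pluripotent stem cells of the Sumatran orangutan, Pongo abelii, that were grown with a pair of small molecules acting on this pathway. Induced pluripotent stem cells are adult cells reprogrammed to a state that resembles the early embryo. The genes were chosen by symbol from the orangutan RefSeq gene table: Wnt ligands and the acyltransferase PORCN, Frizzled and LRP receptors, the R-spondin arm, Dishevelled proteins and the destruction complex, TCF/LEF factors, and secreted inhibitors with feedback genes. This rule gave 69 protein-coding genes, of which 55 had at least 1 transcript in the table that could be paired with a symbol, among 15205 genes so paired, 11922 of them protein-coding.

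The lines were Dokana and Djasinga, and each gave 3 libraries of total RNA from which ribosomal RNA had been removed. Every culture was on Matrigel in iPS-Brew medium with 1 uM IWR1 and 0.5 uM CHIR over 3 sequential passages, so both compounds were shared by all 6 libraries and no culture without them was analysed here. The effect of either compound therefore could not be measured, and the only comparison was between the lines. Titles count the 3 passages as biological replicates, the design text as technical ones. SDs and p-values thus measure how far passages of a line differ, not how far animals differ. The treatment label calls the cells differentiated and the genotype label small RNA, which goes against the titles and protocols used here.

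In the canonical Wnt pathway, a secreted Wnt ligand binds a Frizzled receptor together with LRP5 or LRP6, Dishevelled is recruited, and the destruction complex of AXIN, APC, casein kinase and GSK3 stops marking beta-catenin for degradation. Beta-catenin then enters the nucleus and acts through TCF/LEF factors on target genes, several of which (AXIN2, NKD1, RNF43, ZNRF3, NOTUM, DKK1, SP5) encode inhibitors of the pathway. IWR1 is known to inhibit the tankyrases TNKS and TNKS2, which otherwise mark AXIN for degradation. CHIR is a name commonly used for an inhibitor of GSK3, although the labels do not spell it out. The combination is used in media for primed pluripotent stem cells to hold beta-catenin in the cytoplasm.

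The unit is TPM, which corrects for transcript length and so allows levels to be set side by side between genes. All columns have the same sum, and the read depth behind a value is not known. Only named transcripts are counted: they held 11.9% to 17.6% of each TPM total, while assembled StringTie transcripts without a symbol held 71.7% to 81.2%, and the single most abundant of these alone 16.9% to 42.4%. A low sum therefore need not mean that a gene was silent. HUWE1, a large ubiquitin ligase that cells use widely, may be such a case (named after its values were seen). Its highest value in any library was 0.305 TPM, and the reason was not tested. Among 45 paired ribosomal protein, proteasome, RNA polymerase II and similar genes, only 4 were below 1 TPM in every library. Of these, PSMA8 and RPL10L were listed at 0. The pathway genes held 166, 152 and 204 TPM together in Dokana replicates 1, 2 and 3, against 141, 131 and 141 TPM in the Djasinga replicates. The cells carried the pluripotency markers NANOG (49.9 to 78.3 TPM as means of the lines) and SOX2 (37.4 to 51.3 TPM), while POU5F1 was not paired with a transcript.

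The pathway was represented mainly by its receptors and its intracellular part, and ligands, secreted inhibitors and feedback genes were low. Of the 55 paired genes, 11 had a mean of at least 5 TPM over the 6 libraries. These were LGR4, FZD7, LRP6, GSK3B, TCF7L2, DVL1, DVL3, DVL2, FZD8, AXIN1 and APC, in this order. A further 32 stayed under 1 TPM in every library, 5 of them (FZD6, LGR5, WNT1, WNT6 and WNT10A) listed at 0 in all 6. The median of the gene means was 0.291 TPM. By role, the median was 8.71 TPM for the 7 paired Dishevelled and destruction-complex genes, 1.88 TPM for the 8 paired receptors and 0.145 TPM for the 20 ligand genes, PORCN included. No transcript was paired with CTNNB1 (beta-catenin itself), GSK3A, TNKS, TNKS2, LRP5, TCF7L1, FZD3, FZD4, FZD5, LGR6, RSPO4, SFRP1, SFRP2 or APCDD1. These 14 genes, among them both known targets of IWR1, were not analysed here.

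**Figure D1:**
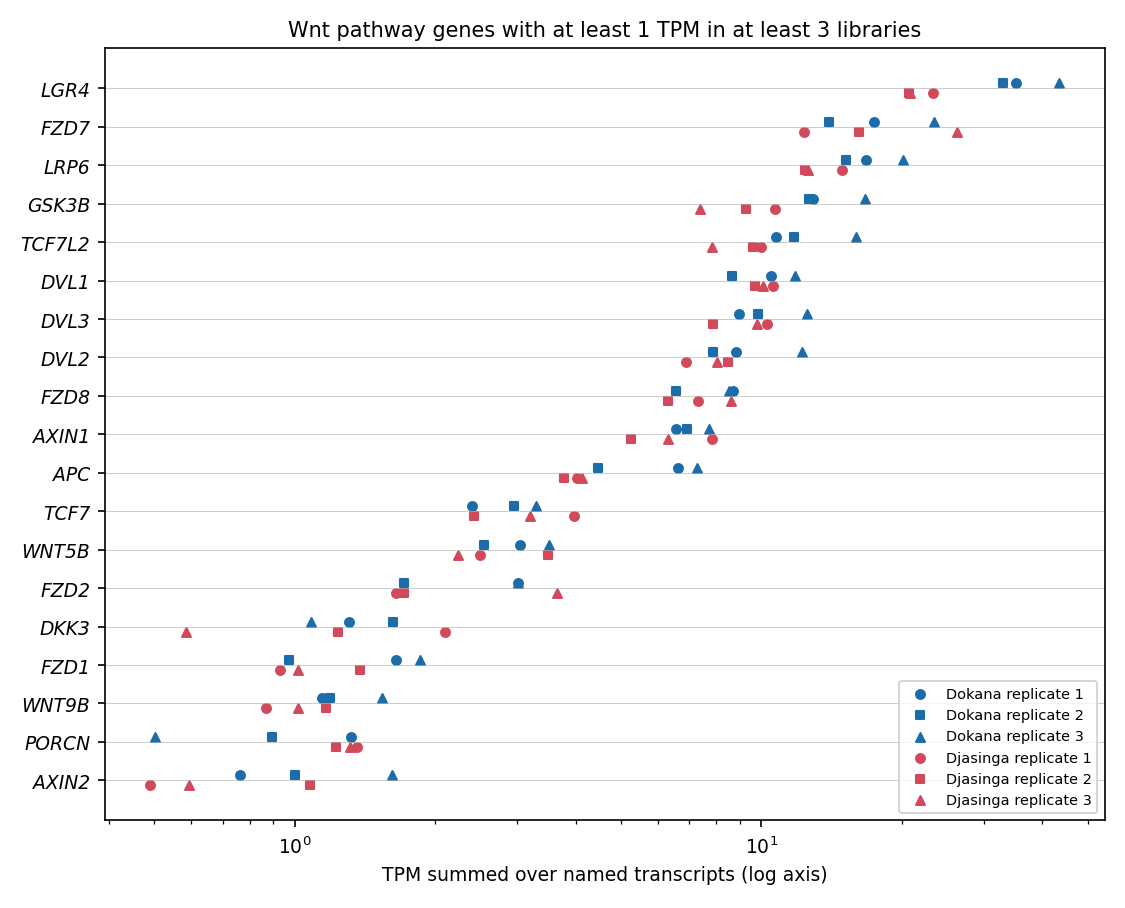
TPM of the 19 Wnt pathway genes that reached 1 TPM in 3 or more libraries (log axis), 1 symbol per library, blue for Dokana and red for Djasinga. LGR4 is the highest gene in every Dokana library, and its 3 Djasinga values (20.7 to 23.4 TPM) lie below its 3 Dokana values (32.9 to 43.5 TPM), whereas FZD7 and the DVL genes overlap between the lines.

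The ligands were sparse. WNT5B, best known for beta-catenin-independent signalling, was the highest and measured 3.04, 2.55 and 3.51 TPM in the Dokana libraries against 2.49, 3.50 and 2.23 TPM in the Djasinga libraries replicates 1, 2 and 3. It made up 35.6% to 46.5% of the TPM of the 19 WNT genes in a library. WNT9B followed and averaged 1.29 ± 0.216 TPM over the Dokana libraries and 1.02 ± 0.150 TPM over those of Djasinga (SD, n = 3), and the lines overlapped in both genes. WNT5A, related to WNT5B, was at 0.974 ± 0.120 and 0.776 ± 0.273 TPM, and WNT3, a ligand tied to primitive streak formation, at 0.612 ± 0.0768 and 0.435 ± 0.103 TPM. WNT10B ranged from 0.387 to 0.666 TPM in 5 libraries and stood at 0.0153 TPM in Djasinga replicate 3. WNT3A, the ligand most used to activate beta-catenin in culture, did not pass 0.0228 TPM in any library. PORCN, which attaches the lipid that Wnt ligands need for secretion, measured 1.32, 0.894 and 0.502 TPM in the Dokana libraries against 1.36, 1.22 and 1.31 TPM in the Djasinga libraries. Dokana replicate 1 lay within the Djasinga range, so the lines overlapped as deposited.

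Among the receptors, FZD7 carried most of the TPM of the 7 paired Frizzled genes, a set without FZD3, FZD4 and FZD5. FZD7, known as the main Frizzled of human pluripotent stem cells, measured 17.4, 14.0 and 23.4 TPM in the Dokana libraries against 12.3, 16.2 and 26.3 TPM in the Djasinga libraries. Replicate 3 was the highest library of both lines. Its share of the summed TPM of the 7 paired Frizzled genes was 57.8% ± 3.40 in Dokana and 59.1% ± 6.58 in Djasinga (SD, n = 3). FZD8 was at 8.68, 6.56 and 8.51 TPM and at 7.33, 6.31 and 8.61 TPM, a share of 25.5% ± 2.78 and 25.3% ± 5.04. FZD2 and FZD1 were lower, with means between 1.11 and 2.58 TPM, FZD9 and FZD10 averaged 0.937 and 0.291 TPM over all libraries, and FZD6 was listed at 0. The order FZD7, FZD8, FZD2 was the same in all 6 libraries. LRP6, the co-receptor that is phosphorylated when Wnt binds, measured 16.8, 15.2 and 20.1 TPM in the Dokana libraries against 14.9, 12.4 and 12.6 TPM in the Djasinga libraries, with all Djasinga values below all Dokana values.

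**Figure D2:**
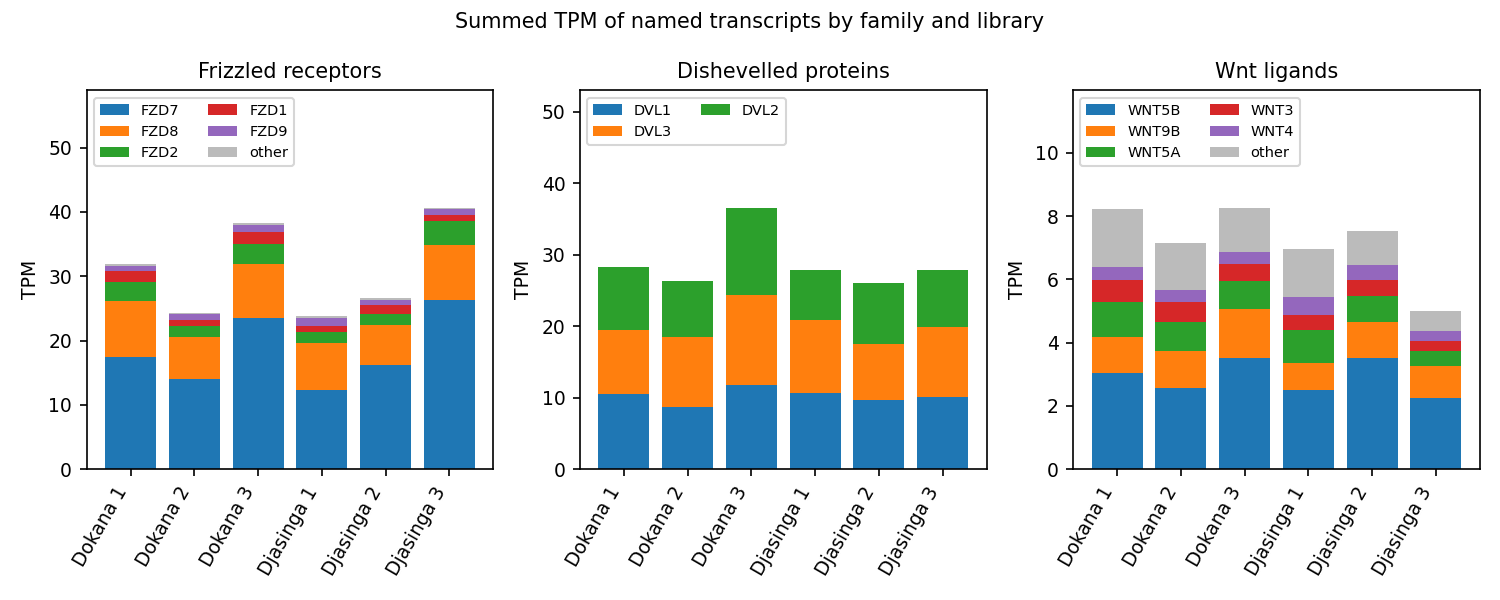
Stacked TPM of the named Frizzled, Dishevelled and WNT genes in each of the 6 libraries (linear axes from 0, a scale of its own in each panel, at most 5 genes coloured and the others in grey). FZD7 is the largest block of every Frizzled bar, the 3 DVL genes have near-equal blocks, and the WNT bars reach only 4.99 to 8.25 TPM.

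In the R-spondin arm, LGR4 had the highest mean of the 55 paired pathway genes, while the other 6 paired genes of the arm stayed under 1 TPM in every library. LGR4 is a receptor for R-spondins, which protect Frizzled from the membrane ubiquitin ligases RNF43 and ZNRF3. Dokana replicates 1, 2 and 3 measured 35.1, 32.9 and 43.5 TPM and the Djasinga replicates 23.4, 20.7 and 20.8 TPM, at percentile 95.6 of the 10763 protein-coding genes detected. The lowest Dokana library was above the highest Djasinga library. LGR5, a stem cell marker of the gut with the same ligands, was listed at 0 in all 6 libraries. ZNRF3 stood at 0.569, 0.730 and 0.302 TPM in Dokana and was listed at 0, 0.698 and 0.507 TPM in Djasinga. RNF43 ranged from 0.0326 to 0.125 TPM in Dokana and was at 0.158, 0 and 0.0647 TPM in Djasinga. The ligand RSPO3 was at 0.954 TPM in Djasinga replicate 1 and between 0.0362 and 0.217 TPM in the other 5 libraries. In the same library SOX1, a neuroectoderm marker, stood at 1.83 TPM, against 0.345 to 1.32 TPM elsewhere. POU3F1, the neuroectoderm marker with the highest mean, went the other way, at 2.53 TPM there against 3.45 to 5.89 TPM elsewhere. PAX6, also such a marker, did not pass 0.0132 TPM in any library of either line. The part of neuroectoderm cells in the RSPO3 value was not tested.

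The intracellular part was present at moderate levels in both lines. The 3 Dishevelled genes had similar levels: DVL1 averaged 10.3 ± 1.58 TPM over the Dokana libraries and 10.1 ± 0.462 TPM over those of Djasinga, DVL3 at 10.4 ± 1.87 and 9.31 ± 1.28, and DVL2 at 9.63 ± 2.28 and 7.80 ± 0.825 (SD, n = 3). Single libraries ran from 8.65 to 11.8, from 8.95 to 12.5 and from 7.87 to 12.2 TPM in Dokana, and from 9.69 to 10.6, from 7.86 to 10.3 and from 6.88 to 8.48 TPM in Djasinga. Each gene overlapped between the lines. Neighbours in this order lay within their SDs in Dokana, and in Djasinga DVL3 was above DVL2 by more than either SD, with single libraries overlapping. Each DVL gene held between 24.8% and 38.2% of the family's TPM in every library.

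GSK3B, the kinase that phosphorylates beta-catenin and the known target of the inhibitor abbreviated CHIR, measured 12.9, 12.6 and 16.7 TPM in the Dokana libraries against 10.7, 9.26 and 7.38 TPM in the Djasinga libraries. The lines did not overlap. APC, a scaffold of the destruction complex, measured 6.63, 4.47 and 7.28 TPM in the Dokana libraries against 4.03, 3.78 and 4.13 TPM in the Djasinga libraries, again without overlap. AXIN1, the scaffold that IWR1 is known to stabilise as a protein, was at 6.57, 6.92 and 7.72 TPM and at 7.82, 5.24 and 6.29 TPM. Its highest and its lowest library were both Djasinga libraries. AXIN2, a close relative whose transcription is itself a readout of beta-catenin activity, was lower and measured 0.763, 1.00 and 1.62 TPM in the Dokana libraries against 0.490, 1.08 and 0.592 TPM in the Djasinga libraries. AXIN1 exceeded AXIN2 in all 6 libraries.

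Because a ratio of genes within a library does not depend on the scale of that library beyond the added 1 TPM, 8 ratios of related genes were planned, and 2 had usable values for both genes. The log2 ratio of AXIN1 to AXIN2 (each TPM + 1) was 1.94 ± 0.187 in Dokana and 2.12 ± 0.494 in Djasinga (SD, n = 3), a difference of 0.18 (two-sided exact permutation p 0.6, or 0.7 adjusted over the 2 ratios). For DVL2 to DVL3 it was -0.12 ± 0.151 and -0.23 ± 0.310, a difference of -0.11 (two-sided exact permutation p 0.7, adjusted 0.7). With 3 libraries against 3 this test cannot go below 0.1. Both differences changed sign without Djasinga replicate 1 (to -0.049 and 0.037). AXIN2 lay near 1 TPM, so its ratio depends on the amount added. With 0.1 TPM added instead, the differences were 0.44 for AXIN1 to AXIN2 and -0.12 for DVL2 to DVL3 (two-sided exact permutation p 0.5 and 0.7).

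Of the nuclear factors, TCF7L2 was the most abundant of the 3 paired genes. TCF7L2, a DNA-binding partner of beta-catenin, measured 10.7, 11.7 and 15.9 TPM in the Dokana libraries against 9.96, 9.60 and 7.86 TPM in the Djasinga libraries. The ranges of the lines did not overlap. TCF7, a second such partner, was at 2.40, 2.95 and 3.29 TPM and at 3.97, 2.42 and 3.20 TPM, with overlap. LEF1, both a partner and a target of beta-catenin, measured 0.11, 0 and 0.292 TPM in the Dokana libraries against 0.150, 0.202 and 0.463 TPM in the Djasinga libraries. TCF7L2 made up 80.9% ± 0.922 of the TPM of the 3 genes in Dokana and 72.5% ± 5.38 in Djasinga, where single libraries ranged from 68.2% to 78.5%, below the lowest Dokana value of 79.9%.

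TCF7L2 was spread over several transcripts, and their proportions varied between cultures of 1 line. The table held 14 named TCF7L2 transcripts. The most abundant made up 22.5% to 41.4% of the gene's TPM in a library and the next 22.5% to 29.5%. The third in order of mean level measured 1.98, 3.30 and 4.17 TPM in the Dokana libraries against 2.59, 0.566 and 0.0583 TPM in the Djasinga libraries, so that Djasinga replicate 1 lay within the Dokana range (log2 difference -1.16, SE 0.44, limma adjusted p 0.310). The fourth was at 0.113 TPM in Djasinga replicate 1 and between 1.14 and 1.83 TPM in the other 5 libraries. A like exchange was seen in AXIN2, where both named transcripts were listed at 0 in some libraries: 1 carried the whole sum in Dokana replicate 1 and Djasinga replicate 1, and the other in Djasinga replicate 3. How reads were divided between overlapping transcripts was decided by the quantification, and no source used here names its tool. Of 21 named transcripts of pathway genes that passed the filter on low values, 0 passed the threshold (limma, adjusted p under 0.05), where 1.03% of all 22561 transcripts did (0.74% as lower in Djasinga), and 3 had an unadjusted p under 0.05, beside 14.5% of all transcripts.

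**Figure D3:**
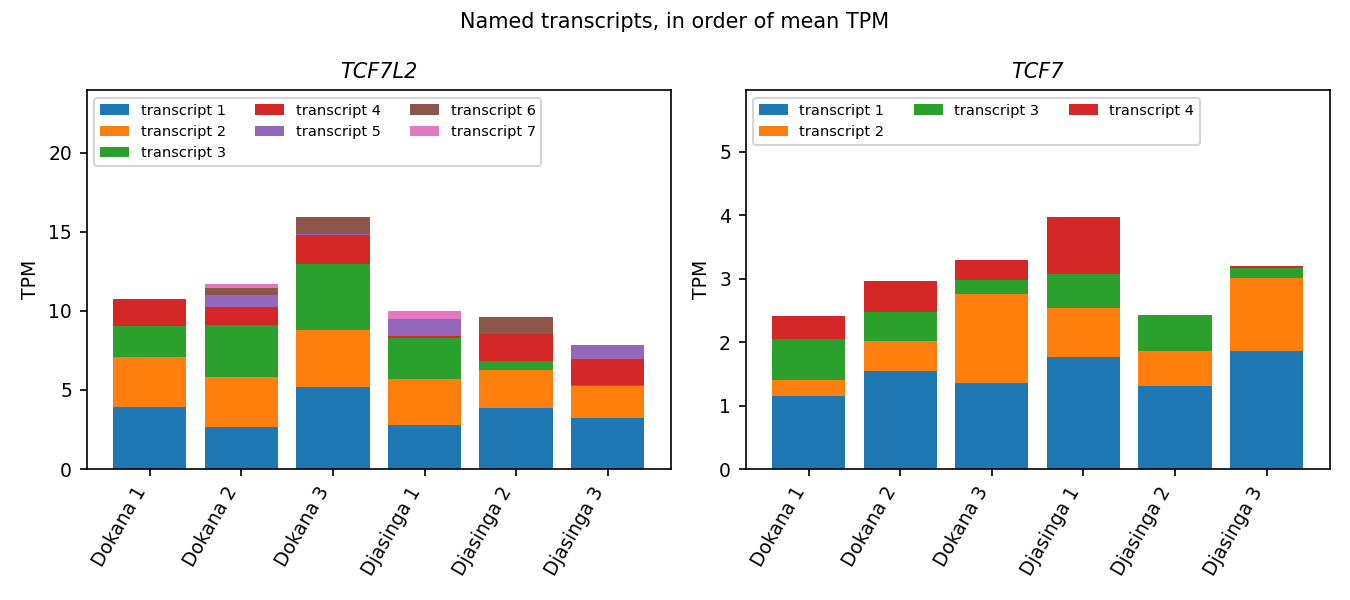
TPM of the named transcripts of TCF7L2 (left) and TCF7 (right) in each library, stacked and numbered in order of mean TPM, leaving out transcripts with a mean under 0.01 TPM. The third TCF7L2 transcript is a thick block in the 3 Dokana libraries (1.98 to 4.17 TPM) and in Djasinga replicate 1 (2.59 TPM), and is thin in Djasinga replicates 2 and 3 (0.566 and 0.0583 TPM).

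Secreted inhibitors and feedback genes were also low, with a median of 0.155 TPM over 10 paired genes. DKK3, a divergent member of the Dickkopf family, was the only one to pass the filter on low values, and measured 1.30, 1.62 and 1.08 TPM in the Dokana libraries against 2.10, 1.24 and 0.586 TPM in the Djasinga libraries. NKD1, which binds Dishevelled and is induced by beta-catenin, measured 1.12, 0.844 and 1.04 TPM in the Dokana libraries against 0.733, 0.802 and 0.580 TPM in the Djasinga libraries. Its Djasinga libraries were all below its Dokana libraries, but it did not reach 1 TPM in 3 libraries and was not in the filtered test. With no filter on low values, 9 of 50 pathway genes were lower without overlap in this way, beside 2119 of 12871 genes.

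The other targets were lower still. SP5, a repressor induced by beta-catenin in pluripotent cells, was at 0.210, 0.0752 and 0.151 TPM and at 0.0678, 0.360 and 0.0801 TPM. DKK1, an antagonist of LRP6, ranged from 0.0192 to 0.0249 TPM in Dokana and was at 0.0597, 0.0566 and 0 TPM in Djasinga. NOTUM, an enzyme that removes the lipid from Wnt ligands, did not pass 0.0223 TPM. Of the secreted Frizzled-related proteins paired, SFRP5 reached at most 0.528 TPM and SFRP4 0.248 TPM.

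**Figure D4:**
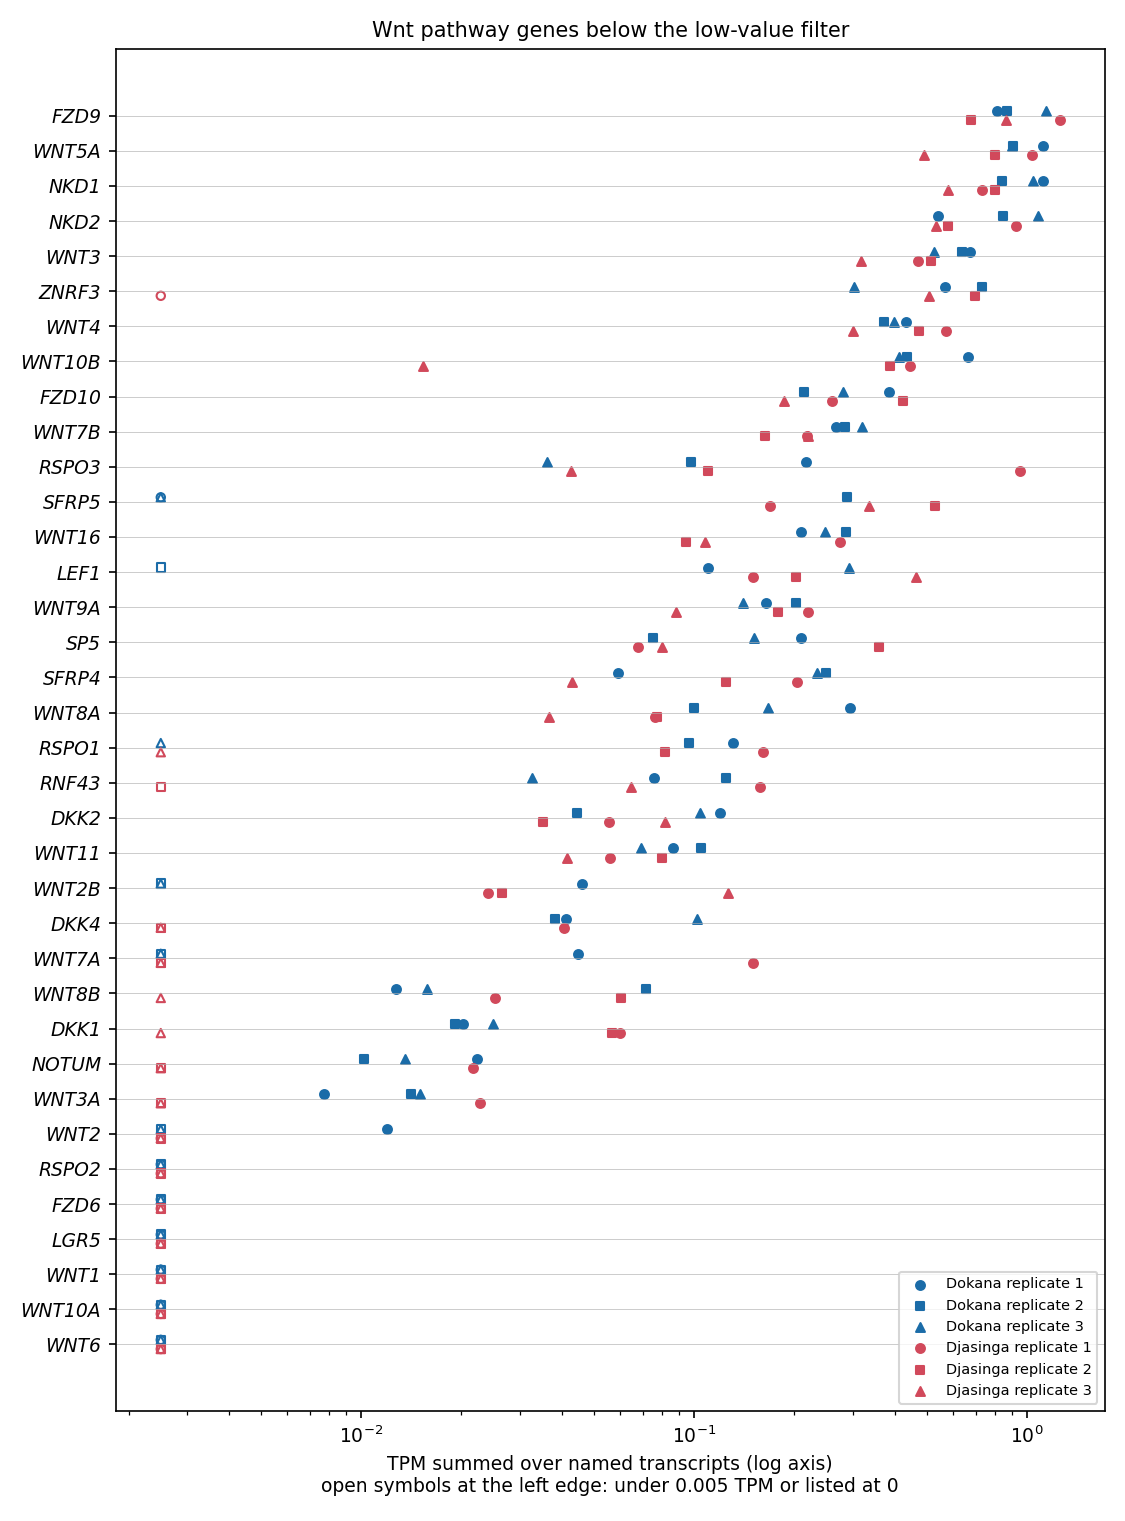
TPM of the 36 paired Wnt pathway genes below the filter on low values (log axis), 1 symbol per library, blue for Dokana and red for Djasinga, with open symbols at the left edge for values under 0.005 TPM or listed at 0. FZD9, WNT5A and NKD1 lie near 1 TPM, and FZD6, LGR5, WNT1, WNT6 and WNT10A have open symbols only.

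The lines were compared with limma on log2(TPM + 1), Djasinga minus Dokana, fitted over the 6255 named genes that reached 1 TPM in 3 or more libraries and adjusted over all of them by Benjamini-Hochberg. No pathway gene passed the threshold of 0.05: 19 were tested and 0 were called by limma, against 0.352% of all genes tested (22 genes). With the replicate number as a block 0 pathway genes were called, beside 0.0799% of all genes, and with no filter on low values 0 of 50, beside 0.124%. At an unadjusted p under 0.05 there were 3 (LGR4, GSK3B and APC, all lower in Djasinga), beside 14.8% of all genes, or 13.9% counting the lower direction alone. That count was 1 with the replicate block, and also 1 when Dokana replicate 1, Dokana replicate 3, Djasinga replicate 2 or Djasinga replicate 3 was left out. The scale of the libraries has to be kept in mind. Of all genes tested, 86.0% were lower in Djasinga and the median gene differed by -0.29, while the most abundant transcript took 26.7% to 42.4% of the TPM in Djasinga and 16.9% to 28.2% in Dokana. Median-ratio scaling, which sets the libraries to a common median gene, moved the median to -0.020. On that scale limma called 0 pathway genes, beside 0.32% of all genes. LGR4 (lower) and DVL1 (higher) had an unadjusted p under 0.05, beside 7.53% of all genes in either direction and 4.4% in the lower one.

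LGR4 had the lowest p of the pathway genes. Its log2 difference was -0.75 (SE 0.18, 95% interval -1.16 to -0.33, limma adjusted p 0.236), or -0.45 relative to the median gene. After median-ratio scaling it was -0.42 (SE 0.089, limma adjusted p 0.275), and the lines still did not overlap. Over the alternatives in which LGR4 was tested the difference stayed between -0.83 and -0.39, with adjusted p between 0.111 and 0.738. GSK3B differed by -0.58 (SE 0.20, limma adjusted p 0.326), or -0.29 relative to the median gene, and by -0.27 after median-ratio scaling (SE 0.13, limma adjusted p 0.751). For APC the difference was -0.50 (SE 0.21, limma adjusted p 0.336), for TCF7L2 -0.43 (SE 0.21) and for LRP6 -0.36 (SE 0.18). The last 3 were within 0.21 of the median gene, and their lines overlapped after median-ratio scaling.

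The other genes were close to or above the median gene. As deposited, 17 of the 19 tested genes were lower in Djasinga and 2 higher, with a median of -0.15 against -0.29 for all genes. After median-ratio scaling 7 were lower and 12 higher, with a median of 0.11 against -0.020. The median thus changed sign with the scaling while it was above that of all genes in both. PORCN and TCF7 were on the higher side in both scalings, at 0.29 (SE 0.21) and 0.10 (SE 0.21) as deposited and at 0.45 (SE 0.20) and 0.36 (SE 0.17) after median-ratio scaling. DVL1 differed by -0.015 (SE 0.18) as deposited and by 0.30 (SE 0.10, limma adjusted p 0.550) after scaling. For FZD7 the 95% interval was wide, from -0.77 to 0.70 as deposited, so differences within it in either direction were not excluded. The 95% interval of AXIN1 ran from -0.58 to 0.33 and that of AXIN2 from -0.85 to 0.24.

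Genes whose libraries did not overlap between the lines were counted next. As deposited, 5 of the 19 tested genes (LGR4, GSK3B, APC, TCF7L2 and LRP6) had all Djasinga libraries below all Dokana libraries, beside 24.5% of all genes tested, and 0 had them above, beside 1.18%. After median-ratio scaling LGR4 and GSK3B were below without overlap, beside 7.80% of all genes, and DVL1 and PORCN above, beside 5.36%.

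**Figure D5:**
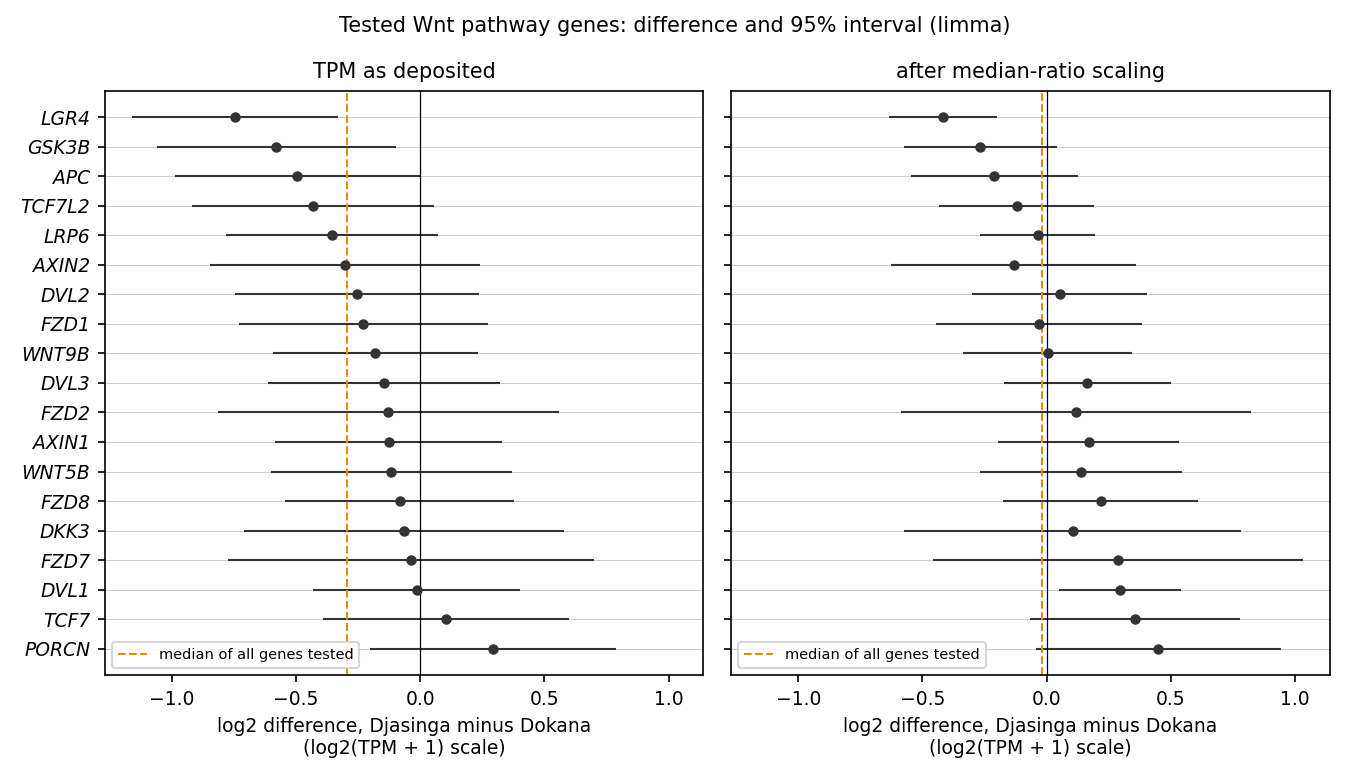
Log2 difference between the lines (Djasinga minus Dokana) with its 95% interval from limma for the 19 tested genes, as deposited (left) and after median-ratio scaling (right). The dashed line is the median of all genes tested (-0.29 and -0.020), and LGR4 is the only gene whose interval lies wholly below that line in both panels.

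Other parts of the pathway were read from lists of partners. Of 27 genes of Wnt secretion, receptor cofactors and planar polarity, 15 were paired and 8 tested. Limma called 0 of them, beside 0.352% of all genes tested. At an unadjusted p under 0.05 (limma) there was 1, beside 14.8% of all genes. The highest was PTK7, a co-receptor of polarity signalling, which averaged 20.3 ± 2.57 TPM over the Dokana libraries and 19.4 ± 1.39 TPM over those of Djasinga (SD, n = 3). It was followed by TPBG (3.75 ± 1.40 and 6.17 ± 4.26 TPM), PRICKLE1 (4.52 ± 1.43 and 4.35 ± 1.97 TPM) and DAAM1 (3.71 ± 0.459 and 3.31 ± 0.993 TPM). WLS, which carries Wnt ligands to the cell surface, was at 1.60 ± 0.429 and 1.30 ± 0.540 TPM.

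Partners of the destruction complex spanned a wide range, with APC2, AMER2 and FRAT1 at means of 0.631, 0.135 and 0.0954 TPM over all libraries (named after their values were seen) beside the 4 abundant ones that follow. Of 28 such genes 22 were paired and 17 tested, and limma called 0, beside 0.352% of all genes. An unadjusted p under 0.05 (limma) was seen for 3, beside 14.8% of all genes. RBX1, a RING protein of cullin ligases, averaged 116 ± 30.3 TPM over the Dokana libraries and 85.8 ± 12.6 TPM over those of Djasinga, and PPP2CA, a catalytic subunit of protein phosphatase 2A, at 113 ± 15.9 and 80.1 ± 6.90 TPM. CTNNA1, alpha-catenin, was at 62.3 ± 9.57 and 43.1 ± 0.326 TPM, and CSNK1A1, the casein kinase that primes beta-catenin for GSK3, at 45.6 ± 9.63 and 32.5 ± 4.69 TPM. The log2 differences of these 4 lay between -0.51 and -0.41, with limma adjusted p from 0.326 to 0.389. Most of these proteins also serve other pathways.

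Of 23 nuclear cofactors 13 were paired and all 13 tested, with 0 called by limma, beside 0.352% of all genes. There were 2 at an unadjusted p under 0.05 (limma), beside 14.8% of all genes. TLE5 was at 27.6 ± 5.76 and 19.5 ± 1.02 TPM, CTBP2 at 21.9 ± 4.99 and 17.5 ± 4.11, TBL1XR1 at 22.2 ± 2.55 and 14.4 ± 3.60, and TLE1, which binds TCF factors in the absence of beta-catenin, at 20.0 ± 4.15 and 13.0 ± 2.60. The median log2 difference of this list was -0.34, near the -0.29 of all genes.

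Further target genes of Wnt and beta-catenin were low in both lines. Of 30 symbols listed (TBXT also by its old symbol T, which was not paired), 19 were paired and only 4 reached the filter. Limma called 0, beside 0.352% of all genes, and 1 had an unadjusted p under 0.05, beside 14.8% of all genes. TBXT, the mesoderm factor that Wnt activation induces in pluripotent cells, did not pass 0.0574 TPM in any library, and MIXL1, a second primitive streak gene, was at 1.03 ± 0.327 and 0.869 ± 0.175 TPM. EPHB2, an ephrin receptor, was at 3.04 ± 0.468 and 2.47 ± 0.804 TPM, HAS2 at 1.49 ± 0.961 and 0.992 ± 0.445, and KLF5 at 0.896 ± 0.219 and 1.30 ± 0.984. FST (follistatin), an activin-binding protein, measured 0.428, 0.480 and 1.35 TPM in the Dokana libraries against 2.32, 4.41 and 2.13 TPM in the Djasinga libraries. FST was thus higher in Djasinga without overlap, as were 1.18% of all genes tested. Its log2 difference was 1.17 (SE 0.30, limma adjusted p 0.283), and it passed the threshold only where protein-coding genes were fitted alone (limma adjusted p 0.0314), a fit that called 48 of 5089 genes. MYC, CCND1 and NODAL had no paired transcript and were not analysed here.

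Most markers of other cell types were low. Of 6 mesendoderm and mesoderm markers the summed level was 1.60 to 2.25 TPM in Dokana and 1.62 to 1.81 TPM in Djasinga. The 4 endoderm markers summed to at most 0.142 TPM in a library and the 5 trophoblast and amnion markers to at most 0.0640 TPM. The 4 paired neuroectoderm markers summed to more, with 4.72 to 7.96 TPM in Dokana and 4.84 to 7.88 TPM in Djasinga. POU3F1 had the highest mean of them and ranged from 2.53 to 5.89 TPM. Of 6 fibroblast markers, COL3A1, DCN and LUM were below 0.1 TPM in all libraries while TWIST2 and COL1A2 ranged from 3.06 to 6.16 TPM and from 1.71 to 4.24 TPM. The Djasinga libraries were all below the Dokana libraries in TWIST2, as in 24.5% of all genes tested. THY1, which primed pluripotent cells also carry, made up most of the sum of 61.9 to 82.3 TPM in Dokana and 37.0 to 67.6 TPM in Djasinga. The 5 paired pluripotency markers, NANOG and SOX2 among them, summed to 241 to 317 TPM and to 176 to 198 TPM, lower in Djasinga like most genes as deposited, and their part in the differences of LGR4 and GSK3B was not tested. In bulk RNA, fewer cells of a type and less RNA per cell cannot be told apart.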

How the data were processed

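RNA-seq of 6 libraries, 3 of each of 2 orangutan lines, was analysed. Per the file headers, the deposited table gives TPM for 58409 transcripts. The submitters' processing notes name Trimmomatic 0.39, FastQC 0.11.9, StringTie and STAR, with no order. The quantifier, genome build and annotation were not named in any source used here. Accessions were matched without version to the RefSeq gene table of NHGRI_mPonAbe1-v2.0, used only for names, which paired 22113 of 43705 RefSeq transcripts (50.6%). Of 91 transcripts of the pathway genes, 4 matched with the version too. TPM was summed per symbol.

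Lines were compared by limma with a mean-dependent prior, with no block, on log2(TPM + 1). Genes or transcripts entered that reached 1 TPM in 3 or more libraries. P-values were adjusted over all of them (Benjamini-Hochberg, threshold 0.05). The added 1 TPM makes changes of low genes look smaller. Named with values were genes averaging 5 TPM or more in a line, 11 feedback targets and the 4 most abundant genes of each partner list; others shown were chosen after their values were seen. Members and lists were chosen with earlier results of these data known. The script was tested on simulated data. The labels give the replicate number under a batch tag, which was taken as pairing the libraries; deviations of same-numbered libraries from their line's mean correlated by -0.093, -0.130 and 0.152 across genes. Alternatives covered the block, scaling, pseudocount, filters, gene classes, accession version and leaving out each library. The values of 1 marker gene are not reported here. Sequences are not shown because none were in the sources used here. Tests ran in limma 3.58.1 (R 4.3.3), and tables and plots were made in Python 3.11.15, using numpy 2.4.6, pandas 2.3.3 and, for plots, matplotlib 3.10.9.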

Additional observations from a re-analysis of the deposited data

How the results depend on the processing

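In all 16 alternatives 0 pathway genes passed the threshold (lowest limma adjusted p 0.111), and in the 14 for their transcripts 0 did (lowest limma adjusted p 0.0671, without Djasinga replicate 1). The version-matched table tested only 2 of them, so it says little. The replicate block changed no call of a pathway gene, and its paired exact p was 0.500 and 0.750 for the AXIN1 to AXIN2 and DVL2 to DVL3 ratios. Of the partner lists 1 gene (FST) was called with protein-coding genes alone, where 48 of 5089 genes were. The number of genes called among all tested fell to 4 without Djasinga replicate 3 and was 6 to 22 without another library. The median difference of the pathway genes, -0.15 as deposited, was 0.11 after median-ratio scaling (with or without the block), 0.099 after quantile normalization and -0.0011 without the most abundant transcript, an alternative that, like the block with scaling, was added after seeing the data. It ranged from -0.21 to -0.079 when a library was left out.

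Of the 19 genes, 12 changed sign somewhere, none past the threshold. After median-ratio scaling, with and without the block, these were DVL2 (0.052), WNT9B (0.0045), DVL3 (0.16), FZD2 (0.12), AXIN1 (0.17), WNT5B (0.14), FZD8 (0.22), DKK3 (0.11), FZD7 (0.29) and DVL1 (0.30). Quantile normalization gave 0.057, 0.045, 0.18, 0.099, 0.19, 0.13, 0.23, 0.23, 0.29 and 0.32 for the same genes in this order, and 1.5e-05 for FZD1. Without the most abundant transcript DVL3 (0.11), FZD2 (0.084), AXIN1 (0.12), WNT5B (0.10), FZD8 (0.17), DKK3 (0.078), FZD7 (0.23) and DVL1 (0.25) did. These 3 alternatives rescale each library by construction. Leaving out 1 library gave ranges of -0.39 to 0.012 for FZD2, -0.20 to 0.014 for FZD8, -0.30 to 0.18 for DKK3, -0.32 to 0.20 for FZD7, -0.13 to 0.078 for DVL1 and -0.028 to 0.24 for TCF7. For the ratios it gave -0.049 to 0.44 (AXIN1 to AXIN2) and -0.27 to 0.037 (DVL2 to DVL3), and their cause was not tested. Depth is unknown, so no limit of detection can be given for genes listed at 0.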
